A study of Homo sapiens with 6 samples.

Results

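The miR-320 family and miR-484 are microRNAs that were listed together as made from precursors that bypass the nuclear enzyme Drosha. Entries were taken from the count table by name, for hsa-miR-320a-3p, hsa-miR-320b, hsa-miR-320c, hsa-miR-320d, hsa-miR-320e and hsa-miR-484, whose prefix for human miRNAs is mostly left out below. Of these 6 names, 5 had an entry among the 1247 mature miRNAs, and miR-320e is not analysed here. The names were chosen for their biogenesis, with earlier results of these data known.

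A canonical miRNA is cut out of a long transcript by Drosha and trimmed by Dicer. The capped class takes another route, in which a short transcript that starts at the hairpin keeps its 5′ cap, leaves the nucleus through exportin 1 and is cut by Dicer alone. The cap is a 7-methylguanosine that is made by the capping enzymes, among them RNMT. The enzyme METTL1 and its non-catalytic partner WDR4 place 7-methylguanosine inside RNA instead, chiefly in transfer RNA and, by report, in some miRNAs such as let-7e. The route is best described for the miR-320a precursor and for miR-484, and the list treats the miR-320 paralogs alike.

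The vesicles came from H1299, a human lung cancer cell line of the non-small cell type. The control cells stably expressed a control short hairpin RNA and the shWDR4 cells one against WDR4. The genotype label is wild type in both groups, and cells of both spent 48 hours in exosome-free medium. The labels give 3 biological repeats, each a library, for either group, but the table joined them into 1 count column per group. No spread between repeats is therefore known. Intervals below are exact 95% intervals that cover counting error only, and each comparison is between 2 pooled columns rather than between conditions. The knockdown was not checked here, since the table holds only miRNAs, and whether the hairpin-expressing cells were clones is not given in the labels. All libraries are of vesicles, so a changed level in the cells and a changed export cannot be told apart.

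Counts summed to 1020282 in control and to 552913 in shWDR4, so that a count of 0 allows up to 2.94 counts per 1000000 (CPM) in control and 5.43 CPM in shWDR4. Mature miRNAs have nearly the same length, so levels were not divided by it. The entries miR-3960, miR-6126 and miR-7704 together went from 0.774% of all counts in control to 37.3% in shWDR4, so the other entries together shared a smaller part of that column. Levels are therefore also given relative to the median entry and as ratios between members, which no scaling changes.

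The mature sequences of miR-320b to miR-320e show how close these members are, beside that of miR-484. They are given 5′ to 3′ from RefSeq on GRCh38.p14, with the seed in capitals (bases 2 to 8, the stretch that chooses targets).

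miR-320b: aAAAGCUGgguugagagggcaa

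miR-320c: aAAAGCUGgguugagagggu

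miR-320d: aAAAGCUGgguugagagga

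miR-320e: aAAGCUGGguugagaagg

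miR-484: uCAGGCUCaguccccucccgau

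The annotated miR-320b, miR-320c and miR-320d share the seed and differ near the 3′ end. Counted from base 1 of miR-320b, miR-320c carries C20U and is 2 bases shorter, and miR-320d carries G19A and is 3 bases shorter. The first 19 bases of miR-320b and miR-320c are the same, and so are the first 18 of miR-320b and miR-320d. The annotated miR-320e begins 1 base further in, which shifts its seed, and carries G17A. A read trimmed at its 3′ end can fit several of these names, and no source used here states how such reads were assigned. Where each read was counted under 1 name, the family sum does not depend on that choice, but the division among members does.

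The seed of miR-484 is unlike those of the printed miR-320 sequences. GC content was 63.6% for miR-484, 50% for miR-320b, miR-320c and miR-320e, and 47.4% for miR-320d. The 311 evaluated entries with a sequence had a median of 54.5%. Outside the family, the entry with the seed of miR-320b was miR-4429, with 8 counts in control and 2 in shWDR4. The other entry with the miR-484 seed, miR-3155a, had 10 counts in control and 0 in shWDR4.

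The hairpin of miR-320b-1 shows where the mature strand sits, with the mature miRNA in capitals.

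MIR320B1: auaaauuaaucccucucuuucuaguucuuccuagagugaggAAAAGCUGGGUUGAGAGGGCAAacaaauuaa

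It covers chr1:116671746-116671817 on the plus strand and is 72 bases long, and the mature miRNA starts at base 42, in the 3p arm. The annotated miR-320b-2, miR-320c, miR-320d and miR-320e also lie in the 3p arm of their hairpins. The mature miR-484 starts at base 8 of its 79-base hairpin, in the 5p arm. The family and miR-484 thus take their mature strand from opposite arms.

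In GENCODE release 29 the MIR484 hairpin, at chr16:15643294-15643372 on the plus strand, lies within a UTR of NDE1, a gene of centrosome and spindle function. Its 5′ end is 27 bases past an annotated NDE1 transcript start on the same strand. MIR320B1, MIR320D1 (chr13:40727816-40727887, minus strand) and MIR320D2 (chrX:140926160-140926231, minus strand) lie outside annotated genes other than their own. MIR320B2 (chr1:224257040-224257110, minus strand) lies in an intron of NVL and MIR320E (chr19:46709282-46709354, minus strand) in an intron of PRKD2, each on the strand of the gene. MIR320C1 (chr18:21683518-21683589) and MIR320C2 (chr18:24321675-24321746) lie on the plus strand opposite introns of ABHD3 and OSBPL1A. For these hairpins the nearest annotated start on the same strand, in either direction, was between 4669 bases (MIR320E) and 141865 bases (MIR320D2) away. That start lay 3′ of the hairpin for MIR320B1, MIR320C2 and MIR320D2, and 5′ of it for the others. Whether capped transcripts start at these hairpins was not tested.

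In shWDR4 exosomes the miR-320 members took a smaller share of the counts than in control, and miR-484 took a larger one. The miR-320 family is often described as restraining the growth of carcinoma cells, and miR-484 as acting on mitochondrial fission. Together the 4 miR-320 members went from 37313 counts in control to 9736 in shWDR4. That is 3.66% (3.62 to 3.69) and 1.76% (1.73 to 1.80) of the columns, a 2.08-fold lower share in shWDR4 (2.03 to 2.12). Adding miR-484 barely moved this, to 2.06-fold lower (2.01 to 2.11), since miR-484 is far less abundant.

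The most abundant member, hsa-miR-320a-3p, held 25908 counts in control against 7292 in shWDR4, or 25393 and 13188 CPM. Its level was 1.93-fold lower in shWDR4 (1.88 to 1.98). It ranked 11th by count among all entries in control and 14th in shWDR4, so it stayed among the abundant vesicle miRNAs in both.

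The member hsa-miR-320b had 5805 and 1195 counts, or 5690 and 2161 CPM, and was 2.63-fold lower in shWDR4 (2.47 to 2.80). The member hsa-miR-320c had 3911 and 823 counts, or 3833 and 1488 CPM, and was 2.58-fold lower (2.39 to 2.78). The member hsa-miR-320d had 1689 and 426 counts, or 1655 and 770.5 CPM, and was 2.15-fold lower (1.93 to 2.40). Their order by level was the same in both columns, and neighbours in that order differed beyond their counting intervals. Ranks went from 31 to 52 for miR-320b, from 36 to 68 for miR-320c and from 70 to 101 for miR-320d.

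The level of hsa-miR-484 went the other way. It had 67 counts in control and 100 in shWDR4, or 65.7 CPM (50.9 to 83.4) and 180.9 CPM (147.2 to 220.0). That is a 2.75-fold higher level in shWDR4 (2.00 to 3.81), and its rank went from 237 to 185. With so few counts its interval is the widest of the 5.

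**Figure D1:**
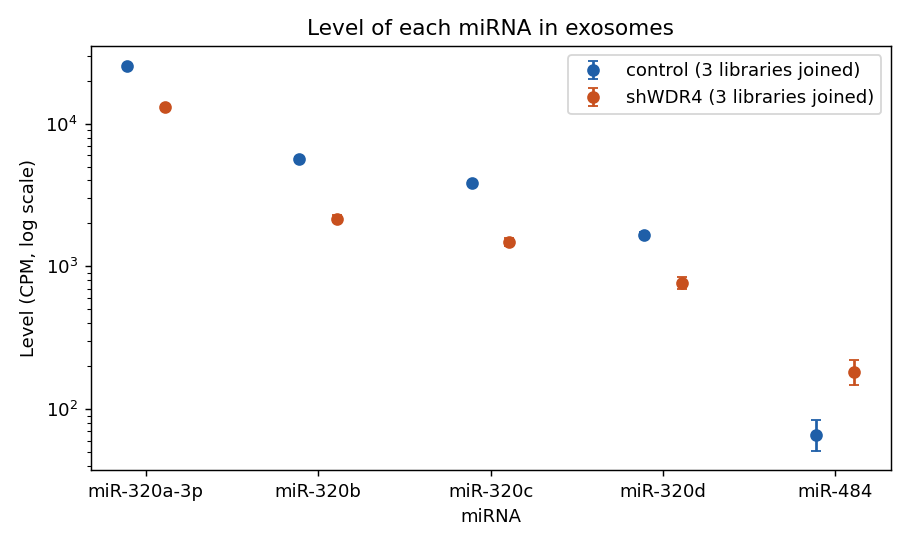
Level of each miRNA in CPM (log scale) in the control and shWDR4 columns, each joining 3 libraries. Bars are exact 95% counting intervals, hidden by the points where narrow. The 4 miR-320 members are lower in shWDR4, from 25393 to 13188 CPM for miR-320a-3p, and miR-484 is higher, from 65.7 to 180.9 CPM.

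The authors' deposited table marked miR-320b, miR-320c and miR-320d as lower in shWDR4 and miR-484 as higher. It did not mark miR-320a-3p, whose normalized log2 fold of control over shWDR4 in the authors' deposited table, 0.95, fell short of the 2-fold that the mark required. These marks come from the same 2 pooled columns.

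By a size rule of 2-fold, 3 of the 5 members were lower, 1 was higher and miR-320a-3p lay within the rule. Among the 349 entries that reached 50 counts in the columns together, 31.5% were at least 2-fold lower and 26.1% at least 2-fold higher. By the marks of the authors' deposited table, 30.7% of these 349 were marked lower and 25.8% marked higher. Changes of this size were thus common in either direction, and 5 members are too few to read their count against such a background. The median log2 fold (shWDR4 over control) was -1.10 for the 5 members and -0.37 for the 349 entries.

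Relative to the median entry the members kept their directions. The log2 fold less that median was -0.58 for miR-320a-3p, -1.03 for miR-320b, -0.998 for miR-320c, -0.74 for miR-320d and 1.83 for miR-484. Of the 349 entries, 75 had a lower fold than miR-320b, 77 than miR-320c, 99 than miR-320d and 116 than miR-320a-3p. For miR-484, 74 entries had a higher fold. All 5 members lay well inside the spread of the evaluated entries. The direction of each was the same with all 5 other scalings tried, but the 2-fold size was not. With the column totals taken without miR-3960, miR-6126 and miR-7704 the 4 miR-320 members were 1.22-fold (miR-320a-3p) to 1.66-fold (miR-320b) lower, and miR-484 was 4.36-fold higher.

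**Figure D2:**
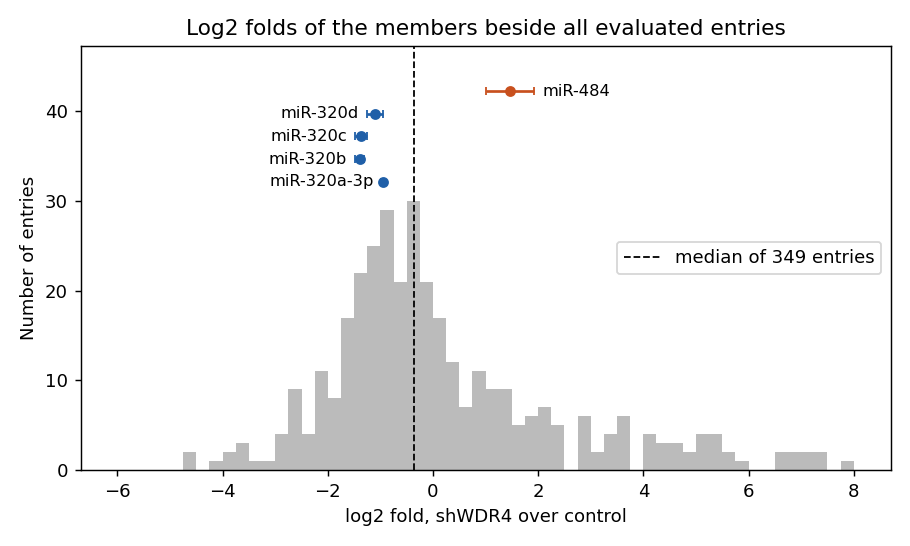
Number of evaluated entries by log2 fold of shWDR4 over control, with the members drawn above as points with exact 95% counting intervals. The dashed line is the median of the 349 entries, -0.37. The miR-320 members lie to its left, between -1.40 and -0.95, and miR-484 to its right at 1.46.

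**Figure D3:**
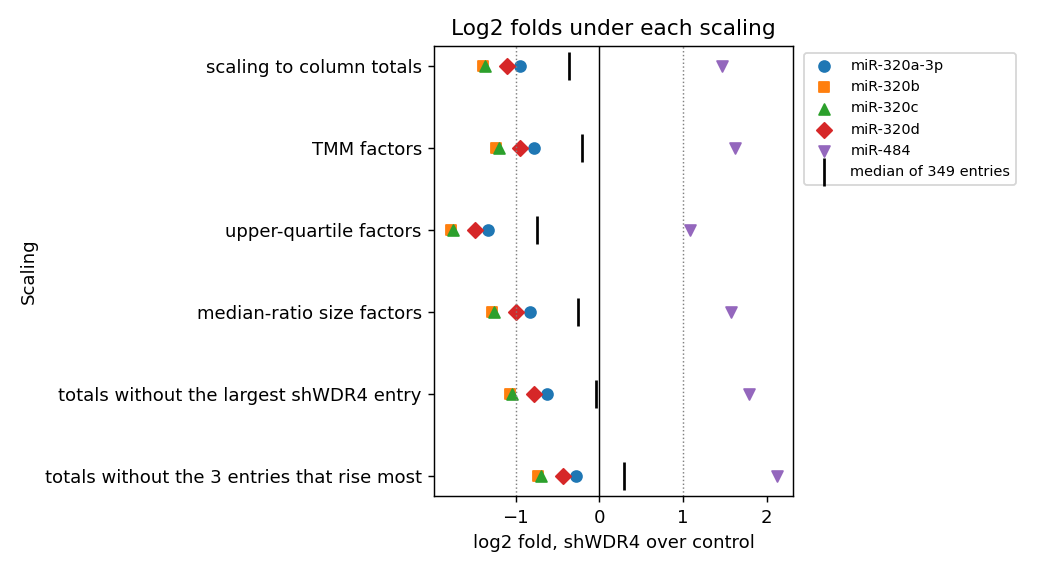
Log2 fold of shWDR4 over control for each member under 6 ways of scaling the columns, with the median of the 349 entries as a black tick and dotted lines at a 2-fold difference. Each scaling moves all points together, so the miR-320 members stay left of the median and miR-484 right of it.

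Ratios between members do not depend on the scaling, and they split the list into miR-484 and the family. There were 1.80 counts of miR-484 per 1000 counts of the family in control against 10.3 in shWDR4, a 5.72-fold higher ratio (4.15 to 7.92). Against single members the ratio of miR-484 was higher by 5.30-fold for miR-320a-3p (3.85 to 7.35) to 7.25-fold for miR-320b (5.23 to 10.1).

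Within the family, miR-320a-3p took a larger share of the family's counts in shWDR4 and miR-320b and miR-320c a smaller one. The share of miR-320a-3p was 69.4% in control (69.0 to 69.9) and 74.9% in shWDR4 (74.0 to 75.8). That of miR-320b was 15.6% (15.2 to 15.9) and 12.3% (11.6 to 12.9), and that of miR-320c 10.5% (10.2 to 10.8) and 8.45% (7.91 to 9.02). The intervals of miR-320d overlapped, at 4.53% (4.32 to 4.74) and 4.38% (3.98 to 4.80).

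Of the 10 pairs of members, 8 had a ratio that differed between the columns beyond counting error, with no adjustment over the pairs. All pairs of miR-484 with a miR-320 member are among the 8. The share of such pairs among other entries was not computed, so the 8 cannot be read as a trait of the members. The ratio of miR-320b to miR-320c was 1.48 in control and 1.45 in shWDR4, a fold of 0.978 (0.886 to 1.08). The ratio of miR-320a-3p to miR-320d was 15.3 and 17.1, a fold of 1.12 (0.9996 to 1.25). By contrast miR-320a-3p to miR-320b went from 4.46 to 6.10, a fold of 1.37 (1.28 to 1.46). A counting interval leaves out the spread between repeats, so these small shifts may lie within it.

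**Figure D4:**
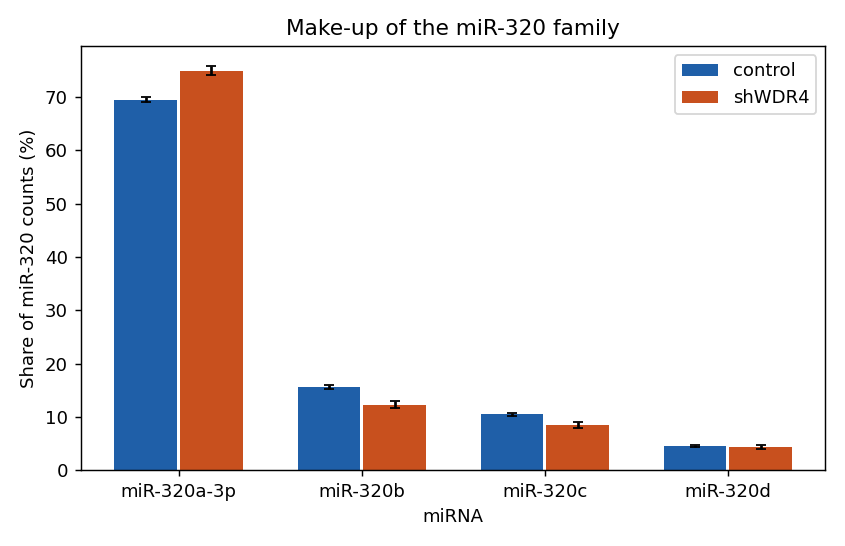
Share of each member in the summed miR-320 counts, in percent, for the control and shWDR4 columns, with exact 95% counting intervals. The share of miR-320a-3p is 69.4% in control and 74.9% in shWDR4, and those of miR-320b and miR-320c are lower in shWDR4.

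A cap on the precursor is known to hinder loading of the 5p strand, so that capped hairpins with a 3p guide yield almost no 5p miRNA. The 5p arm of the miR-320a hairpin, miR-320a-5p, had 0 counts in control and 1 in shWDR4, beside 25908 and 7292 counts of the 3p arm. The 5p share was 0.0137% in shWDR4 (0.000347 to 0.0764), and the exact interval for the count of 0 in control reached 0.0142%. The arm balance of the hairpin was thus not detectably different between the columns at this depth.

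Over both columns the 5p arm held 0.00301% of the hairpin's counts. Among 150 hairpins with both arms listed under one name and at least 50 counts, the lesser arm held a median of 9.81%, and 0 of these 150 had a smaller share than miR-320a. The hairpin is also among the deeper ones, and a small share can be seen only there. Of the 13 hairpins with at least 10000 counts, let-7b came next with 0.0259%, and its interval (0.00534 to 0.0756) overlapped that of miR-320a (7.63e-05 to 0.0168). After it came let-7e with 0.102% (0.0583 to 0.166) and miR-100 with 0.118% (0.0857 to 0.158), both clear of miR-320a. The hairpins miR-423 and miR-3184, both among the 13, each have an arm with 52349 counts in control and 16692 in shWDR4. Not all of the 13 or the 150 are therefore distinct. The lowest count over both columns of any entry is 1, so an arm at 0 in both columns has no entry. A further 82 hairpins with at least 50 counts had 1 arm listed under their name and are outside this comparison. Of these, 5 had at least 10000 counts, and a lesser arm of let-7a-5p (195735 counts) or miR-16-5p (127365 counts) at 0 would allow a share of up to 0.00153% and 0.00236%, below that of miR-320a. The rank of miR-320a therefore holds for the 150 hairpins alone.

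**Figure D5:**
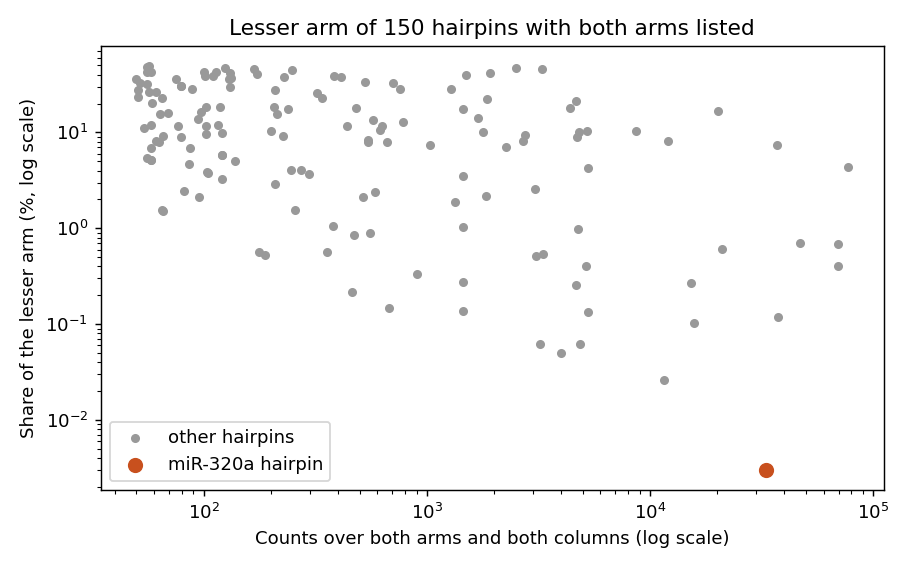
Share of the lesser arm in percent against the counts over both arms, both on log scales, for 150 hairpins with both arms listed and at least 50 counts. The miR-320a hairpin, at 33201 counts and 0.00301%, is the lowest point among these 150.

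Other routes that bypass part of the canonical pathway were compared. Mirtrons are short introns that splicing turns into a Dicer substrate, and 16 arms from a list of 10 mirtron hairpins had an entry. Of these, 3 were evaluated and they differed in direction. From the same mirtron, miR-877-5p went from 1795 counts to 318, 3.06-fold lower in shWDR4 (2.71 to 3.46), and miR-877-3p from 88 to 74, 1.55-fold higher (1.12 to 2.14). The ratio of the 3p to the 5p arm of miR-877 went from 0.0490 to 0.233, a fold of 4.75 (3.35 to 6.69). The third, miR-1229-5p, had 48 and 133 counts and was 5.11-fold higher in shWDR4 (3.65 to 7.27).

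The miRNAs derived from small nucleolar RNA had 4 entries from a list of 6 names, none with 50 counts, and summed to 39 counts in control against 33 in shWDR4. The Dicer-independent miR-451a had 0 counts in control and 3 in shWDR4. Neither allows a statement on direction at this depth.

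The let-7 family, to which the reported METTL1-WDR4 substrate let-7e belongs, was as a sum lower in shWDR4 by more than the miR-320 family. The summed markers of other cell types, described below, were 4.31-fold lower (4.11 to 4.52). Whether methylation has a part in these levels was not tested. With scaling to the column totals all 9 let-7 members were at least 2-fold lower in shWDR4, against 31.5% of the evaluated entries. With the totals taken without miR-3960, miR-6126 and miR-7704 this held for 8, miR-98-5p being the other, against 14.0% of the evaluated entries. The summed share of the 9 let-7 members was 6.08-fold lower (5.998 to 6.17), against 2.08-fold for the miR-320 sum. Most of that sum was let-7a-5p, with 179241 of 243972 counts in control. Single members ranged from 2.69-fold lower for miR-98-5p (2.25 to 3.22) to 24.5-fold for let-7c-5p (21.3 to 28.4). The reported substrate let-7e-5p lay inside that range, at 7.37-fold lower (6.93 to 7.85). The interval of miR-98-5p overlapped that of miR-320b (2.47 to 2.80). The ratio of the miR-320 sum to the let-7 sum went from 0.153 in control to 0.448 in shWDR4, 2.93-fold higher (2.85 to 3.01), which no scaling alters.

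The entries nearest to a member by level in both columns (the distance in log2 CPM over 2 columns) were named by rule. Being chosen for both levels, they have folds near that of the member by construction. For miR-320a-3p these were miR-151a-5p at 0.27, miR-1246 at 0.63 and miR-26a-5p at 0.69. They were 2.47-fold, 3.32-fold and 3.23-fold lower in shWDR4. For miR-484 they were miR-4771 at 0.30, miR-6789-5p at 0.32 and miR-877-3p at 0.59, with 3.59-fold, 2.48-fold and 1.55-fold higher levels.

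Markers of other cell types were lower beside the miR-320 family. All 15 listed markers of blood, liver, vessel and muscle had an entry, and their summed level was 14479 CPM in control and 3360 in shWDR4. Of the 7 evaluated, 6 were at least 2-fold lower and none higher, against 31.5% and 26.1% of the evaluated entries. The exception, miR-142-5p, lay within 2-fold. Without miR-3960, miR-6126 and miR-7704 in the totals, 4 of the 7 were at least 2-fold lower, against 14.0% of the evaluated entries. With those totals miR-486-5p and miR-122-5p also lay within 2-fold. The red cell marker miR-451a was at 0 in control, and the muscle markers miR-133a-3p and miR-206 were at 0 in shWDR4. Most of the sum was the endothelial miR-126-3p, with 9954 and 1153 counts. Its other arm, miR-126-5p, had 898 and 90. Markers of the same cell type differed widely in level. The smooth muscle markers miR-143-3p and miR-145-5p had 1010 and 7 counts in control, and 81 and 2 in shWDR4. Of the red cell markers, miR-486-5p had 509 and 100 counts, miR-144-3p 7 and 2, and miR-451a 0 and 3. Of the leukocyte markers, miR-142-3p had 100 and 3 counts, miR-142-5p 54 and 17, miR-223-3p 18 and 7, and miR-150-5p 24 and 18. The level of miR-150-5p was 1.38-fold higher in shWDR4, with an interval (0.708 to 2.66) that includes 1. Whether any RNA from such cells is present, or adds to the miR-320 levels, was not tested.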

How the data were processed

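Small RNA was sequenced from exosomes of control and shWDR4 H1299 cells, 3 libraries each. Libraries were made with a kit that ligates adaptors to both RNA ends, per the labels' protocols. The authors deposited unnormalized read counts for each mature miRNA, with the libraries of a group joined in 1 column per the file headers. The submitters' processing notes name FastQC, Trim Galore, Bowtie, SAMtools and edgeR without a role or version. The genome build, miRNA annotation, handling of reads that fit several miRNAs and use of molecular identifiers are not stated by any source used. Also read were the normalized log2 fold, the Storey q-value (a p-value adjusted for many tests) and the mark for a q-value under 0.001 with a 2-fold difference, all deposited by the authors and defined per the file headers.

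Counts were divided by the column total and multiplied by 1000000 (CPM). Folds are shWDR4 over control with exact 95% intervals conditional on the sum of both counts, shares have exact Clopper-Pearson intervals, and ratios between entries have exact conditional odds-ratio intervals (SciPy 1.17.1). Amplified reads are not independent molecules, so intervals and floors (3 counts) cover counting error only. In the fold of all entries, 3 counts stand in place of a 0. The interval code was tested on simulated counts. The planned edgeR test over 6 libraries was not run, because each group is 1 column, so no p-value is given. Most entries named follow a rule: all members, other arms, seed mates, and the 3 nearest entries of miR-320a-3p and miR-484. Mirtrons are named from 50 counts on, and markers of other cell types at any count. Of the let-7 members, let-7a-5p, let-7e-5p and those with the smallest and largest fold are named with values. Outside the rule, miR-3960, miR-6126 and miR-7704 and some hairpins of the arm comparison are also named. The members and lists were chosen with earlier results of these data known. Sequences are from RefSeq, where 1115 of 1247 entries matched by name, and gene overlaps from GENCODE release 29. Alternatives were other scalings (edgeR 4.0.16, DESeq2 1.42.0) and count minimums.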

Additional observations from a re-analysis of the deposited data

How the results depend on the processing

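Other scalings shift every log2 fold (shWDR4 over control) by a constant: 0.16 with trimmed mean of M values, 0.11 with median-ratio factors, -0.38 with upper-quartile factors, 0.32 with totals without miR-3960 and 0.66 without miR-3960, miR-6126 and miR-7704. The median of the 349 entries moves with it, from -0.37 to -0.21, -0.26, -0.75, -0.04 and 0.30. No member changed direction under any of these. With these 5 scalings in that order the log2 fold of miR-320a-3p was -0.79, -0.84, -1.33, -0.62 and -0.28, that of miR-320b -1.24, -1.29, -1.78, -1.07 and -0.73, and that of miR-320c -1.21, -1.25, -1.75, -1.04 and -0.70. That of miR-320d was -0.94, -0.99, -1.48, -0.78 and -0.44, and that of miR-484 1.62, 1.57, 1.08, 1.78 and 2.12. The family sum was at -0.90, -0.94, -1.44, -0.73 and -0.39, and the sum of all members at -0.88, -0.93, -1.42, -0.72 and -0.38. Under the scaling without the 3 entries 49 of the 349 were at least 2-fold lower and 117 higher, in place of 110 and 91, and with upper-quartile factors 151 and 76. With a minimum of 20 counts 154 of 501 entries (30.7%) were at least 2-fold lower and 151 (30.1%) higher, and with 200 counts 68 of 208 (32.7%) were lower and 48 (23.1%) higher. With 1 count 219 of 1247 (17.6%) were lower and 402 (32.2%) higher, so that higher entries then outnumbered lower ones. There 3 counts stood in place of a 0, so an entry such as miR-133a-3p (1 count in control, 0 in shWDR4) was scored as higher. How many of the 402 were of this kind was not counted, so these shares do not compare the directions. The counts of let-7 and of other-cell-type entries under each scaling were added after seeing the data. Keeping identical counts once changed little (106 and 88 of 339), and the arm shares of miR-320a were the same with a minimum of 200 counts. Leaving out each replicate was not run, and no paired analysis was possible because each group is 1 pooled column. Depth limits miR-484, miR-4429, miR-320a-5p and the thin lists.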

Other observations

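Short motifs that were described for RNA-binding proteins in vesicle sorting were searched in the mature sequences of the given strand. These were GGAG and CCCU, described for hnRNPA2B1, and GGCU, described for SYNCRIP, in the 311 evaluated entries with a sequence. The printed miR-320 sequences hold none of the 3, and miR-484 holds CCCU and GGCU, the latter in its seed. CCCU was found in 29 entries (9.32%), with 4 at least 2-fold lower and 8 at least 2-fold higher in shWDR4, and a median log2 fold of -0.10. GGCU was found in 55 entries (17.7%), with 12 lower and 21 higher and a median of -0.05. GGAG was found in 62 entries (19.9%), with 13 lower and 20 higher and a median of 0.16. Over all 311 entries 94 were lower and 82 higher, with a median of -0.35. A match is a description of the letters and says nothing of binding.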
